A study of Caenorhabditis elegans with 2 samples.

Results

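The genes *myo-1*, *myo-2* and *myo-5* encode conventional myosin heavy chains and were grouped as the pharyngeal myosin heavy chain genes of *Caenorhabditis elegans*. They were found by name in the Ensembl annotation, and all 3 were present among 19973 nuclear protein-coding genes. Binding of the homeodomain factor CEH-22 was profiled by ChIP-seq, which sequences the DNA recovered with a protein from sonicated chromatin. The material was whole late embryos of mixed sex from strain OP389, which has the *unc-119* allele tm4063 and the transgene wgIs389, giving stable expression of CEH-22 with GFP and FLAG at its C-terminus. The study had 1 group of 2 biological replicates with this genotype and no other condition, and the antibody is listed as ceh-22. Because whole embryos were used, binding in few cells and weak binding in many cells could not be told apart. The 3 genes lay at I:7258946-7267057 on the minus strand (*myo-1*, WBGene00002348), X:12468061-12475348 on the plus strand (*myo-2*, WBGene00003514) and V:8108970-8118131 on the plus strand (*myo-5*, WBGene00019064) in assembly WBcel235, which is build ce11. Each had 1 annotated transcript.

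Myosin heavy chains are the motor proteins of muscle thick filaments, and each muscle builds its filaments from its own set of chains. In *C. elegans* the products of *myo-1* and *myo-2* serve the pharynx, the muscular pump that takes in food, while those of *unc-54* and *myo-3* serve the body wall muscles. The enhancer of *myo-2* is the site through which CEH-22 was first studied: CEH-22 binds an NK-2 type site in it, and PHA-4, a forkhead factor required for the formation of the pharynx, binds a separate element of the same enhancer. Whether *myo-5* acts in the pharynx could not be checked here, since peak lists hold no expression.

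The strongest regions of *myo-2* and *myo-5* lay upstream of the genes, and their sequences are shown because they differ in the sites they hold. The *myo-2* region (chrX:12467635-12467978) held both an NK-2 site, TCAAGTG read on the minus strand, and the forkhead site TGTTTGC on the plus strand. The *myo-5* region (chrV:8107864-8108207) held the forkhead site on the minus strand and no exact NK-2 site. Only exact matches to TCAAGTG or TTAAGTG (NK-2) and to TGTTTGC (forkhead) were counted, and near matches were not searched. Both were read on the plus strand of WBcel235 from RefSeq, with 22 bp left out at each end of the region and the sites in capitals.
myo-2, chrX:12467657-12467956: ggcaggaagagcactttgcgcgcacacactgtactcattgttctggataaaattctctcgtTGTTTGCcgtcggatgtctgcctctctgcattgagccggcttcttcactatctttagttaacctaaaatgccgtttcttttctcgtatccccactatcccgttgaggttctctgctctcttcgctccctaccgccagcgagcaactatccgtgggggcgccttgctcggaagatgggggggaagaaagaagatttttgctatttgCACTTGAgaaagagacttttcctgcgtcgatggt
myo-5, chrV:8107886-8108185: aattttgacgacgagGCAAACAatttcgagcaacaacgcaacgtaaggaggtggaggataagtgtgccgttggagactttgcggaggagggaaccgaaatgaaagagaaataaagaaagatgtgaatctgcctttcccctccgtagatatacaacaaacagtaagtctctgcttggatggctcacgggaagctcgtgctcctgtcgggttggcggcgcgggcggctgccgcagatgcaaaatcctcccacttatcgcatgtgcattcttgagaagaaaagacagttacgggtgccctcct

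The *myo-2* upstream site was 1 of 2 NK-2 sites in the *myo-2* window, the stretch from 5000 bp upstream of the 5' end to the 3' end in which regions were counted. The other lay 961 bp downstream of the 5' end, inside the gene. The NK-2 site of *myo-5* that lay nearest to a pooled summit was also inside its gene. These 3 sites are given with 10 bp on each side and the NK-2 letters in capitals, because distances from summits to each of them are given below. Other NK-2 sites to which distances are given are not printed.
myo-2 upstream, chrX:12467913-12467939: ttgctatttgCACTTGAgaaagagact
myo-2 inside the gene, chrX:12469009-12469035: aagaaagtcaCACTTGAggaccagatt
myo-5 inside the gene, chrV:8116729-8116755: agcttcaataTCAAGTGgaagaggagc

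Regions came from 4 deposited lists, in which each region has a signal value of the authors' peak caller, on a scale not stated. The pooled list of both replicates held 19644 regions, each replicate list 30000, and the thresholded list, made with a measure of reproducibility between replicates (IDR), 285. The pooled list was deposited as peaks and background that served as input for IDR, so a region in it need not be a called peak. Ranks run from 1 for the strongest region of a list. Signal values of different lists are not on one scale, and the read depth behind them is unknown. The windows of the 3 genes held 16 pooled regions, 25 regions of replicate 1 and 25 of replicate 2. No member had a thresholded peak. Of all nuclear protein-coding genes 2.21% had one in the same kind of window, so a count of 0 of 3 is near the background and is no result about these genes. The weakest thresholded peak had a signal value of 32.2, above the strongest region of each member. It ranked 285, so the thresholded list was the 285 strongest pooled regions. Absence from it thus gives no separate rating of the reproducibility of the members' regions.

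*myo-2*, the pharyngeal myosin gene whose enhancer CEH-22 is known to bind, had its strongest pooled region with a summit 254 bp upstream of its 5' end. The region had a signal value of 22.2 and rank 949, within the strongest 4.83% of the pooled list. In replicate 1 the nearest summit lay 29 bp away, 225 bp upstream of the gene, with a value of 6.85 and rank 3157. In replicate 2 it lay 39 bp away on the other side, 293 bp upstream, with a value of 18.1 and rank 612. Both replicates thus had a region at the place of the pooled summit, and it stood higher in replicate 2 than in replicate 1. Replicate 1 also had a second, overlapping region with its summit 460 bp upstream, at rank 5184. Among the 201 nuclear pooled regions within 100 ranks of the *myo-2* region, itself included, 156 (77.6%) had summits of both replicates within 200 bp, against 35.4% of all nuclear pooled regions. The median ranks of those 156 were 3908 in replicate 1 and 1825 in replicate 2, so the *myo-2* region ranked above that median in both.

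**Figure D1:**
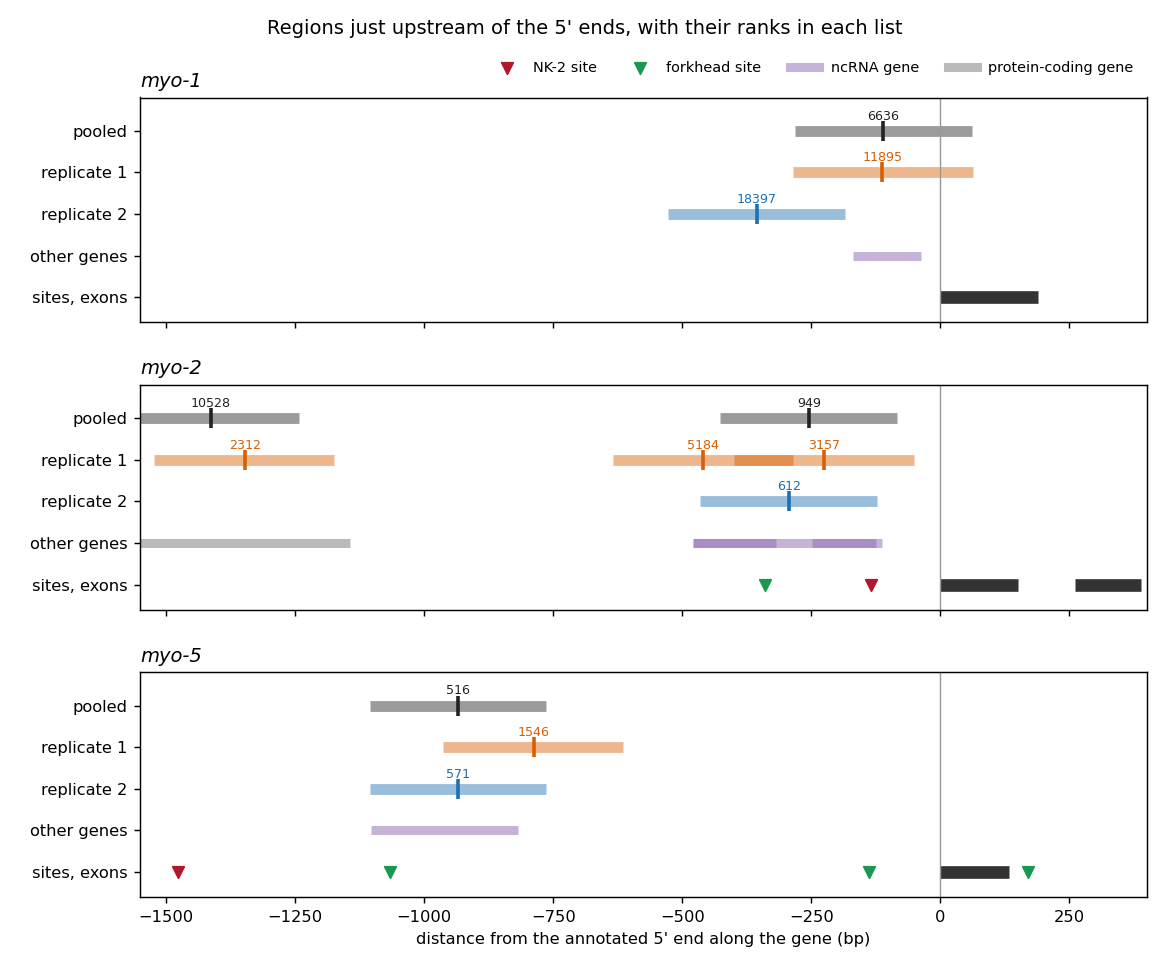
Regions around the 5' ends of *myo-1*, *myo-2* and *myo-5* (horizontal axis, distance along the gene in bp). Bars are regions of the pooled list and of each replicate, with the summit as a tick and the rank in that list above it, and the lower rows show other annotated genes, exons (black) and the NK-2 and forkhead sites. At *myo-2* the regions of all 3 lists overlap and span both sites, at *myo-5* they overlap with no exact NK-2 match beneath, and at *myo-1* the ranks are 6636, 11895 and 18397.

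The NK-2 site of the *myo-2* promoter was centred 135 bp upstream of the 5' end and 119 bp downstream of the pooled summit, 90 bp from the replicate 1 summit and 158 bp from that of replicate 2. The forkhead site was centred 340 bp upstream of the 5' end and 86 bp from the pooled summit, on its other side. An NK-2 site, as TCAAGTG or TTAAGTG on either strand, was present in 9.47% of nuclear pooled regions, and the forkhead site TGTTTGC on either strand in 6.98%. Both occurred together in 119 regions, or 0.606%, of which 3 were thresholded peaks and 11 were at least as strong as the *myo-2* region, itself included. In the whole pooled list 285 of 19644 regions were thresholded and 4.83% were at least as strong as that region. Whether the sites occur together more often than their single shares would give was not tested. The forkhead site was searched because PHA-4 binds the same enhancer, a choice made after the regions had been seen, and neither motif contains the other. Of promoters taken as 250 bp upstream to 50 bp downstream of the 5' end, 6.1% held an NK-2 site, and *myo-2* was the only one of the 3 genes whose promoter did. A match of letters describes the sequence and does not show that a factor bound there.

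In the pooled list the rest of the *myo-2* window held weaker regions, which the replicates shared in part. In replicate 1 the strongest region of the window was not the one next to *myo-2* but one with a value of 7.55 and rank 2312, whose summit lay 204 bp downstream of the 5' end of the neighbouring gene *cdf-2*, a cation diffusion facilitator gene on the other strand. Replicate 2 had no summit within 200 bp of the pooled region there, which ranked 10528. Near the 3' end, a pooled region at 6467 bp downstream of the 5' end (value 14.0, rank 5898) lay in a coding exon. It had a replicate 1 summit 195 bp away at rank 3706 and a replicate 2 summit 146 bp away at rank 1774. In replicate 1 a region at rank 2379 lay 5986 bp downstream of the 5' end. It was stronger than that one and than the upstream region of replicate 1 at rank 3157. The pooled region over the second NK-2 site had its summit 938 bp downstream of the 5' end, in a coding exon and 23 bp from the site. Its rank was 10558 among pooled regions and 5235 in replicate 2. Replicate 1 had no summit within 200 bp of it. A region 3155 bp upstream, inside *cdf-2*, ranked 5678, 14052 and 9750 in the pooled list, replicate 1 and replicate 2.

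*myo-5* had the strongest pooled regions of the 3 genes, 1 upstream and 1 in an intron. The upstream region, with its pooled summit 934 bp before the 5' end, had a signal value of 26.3 and rank 516, within the strongest 2.63% of the list. The replicate 2 summit was at the same base, with a value of 18.4 and rank 571. The replicate 1 summit lay 146 bp closer to the gene, with a value of 8.53 and rank 1546. The region was within the strongest 10% of the pooled list and of both replicate lists. No region of *myo-1* or *myo-2* was, although the *myo-2* promoter region missed narrowly, at 10.5% in replicate 1. The nearest NK-2 site was centred 544 bp upstream of the pooled summit, outside the region, and the forkhead site in the region was 132 bp from the summit.

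The intronic region of *myo-5* was uneven between replicates. Its pooled summit lay 2111 bp downstream of the 5' end, with a value of 23.3 and rank 778. Replicate 1 had a summit 43 bp away with a value of 11.5 and rank 633, which was the strongest region of the *myo-5* window in that replicate. Replicate 2 had a summit at the same base at rank 8649. The region therefore stood far higher in replicate 1 than in replicate 2. The nearest NK-2 site was 1475 bp from its summit. The other 5 pooled regions of the *myo-5* window ranked from 4788 to 14135. Of these, the one at 7826 bp downstream of the 5' end, in a coding exon, lay 54 bp from an NK-2 site and ranked 14135 in the pooled list and 16160 in replicate 2, with no replicate 1 summit within 200 bp. The region 2430 bp upstream, inside *str-90*, was nearer to the 5' end of *srlf-16* than to that of *myo-5*.

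*myo-1*, the other established pharyngeal myosin gene, had weaker regions, none of which had summits of both replicates within 200 bp. The window held 4 pooled regions, ranked down to 10421. The strongest lay in a coding exon 2700 bp downstream of the 5' end, with rank 4507. Its nearest replicate 1 summit, 172 bp away, had a value of 2.5 and rank 28946, close to the end of that list, and replicate 2 had none within 200 bp. The region next to the promoter, with its summit 111 bp upstream, had a value of 13.5. It was matched within 1 bp in replicate 1 at rank 11895 (value 4.28), and the nearest replicate 2 summit was 245 bp away, at rank 18397 (value 7.67). The strongest region of replicate 1 in the window ranked 8478 and that of replicate 2 ranked 5332, and they lay 3964 bp downstream and 3190 bp upstream of the 5' end, the latter inside the potassium channel gene *twk-1*. The intronic region 1064 bp downstream lay 97 bp from an NK-2 site of the form TTAAGTG, and it had a replicate 2 summit 7 bp away (rank 15961) and none in replicate 1 within 200 bp.

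**Figure D2:**
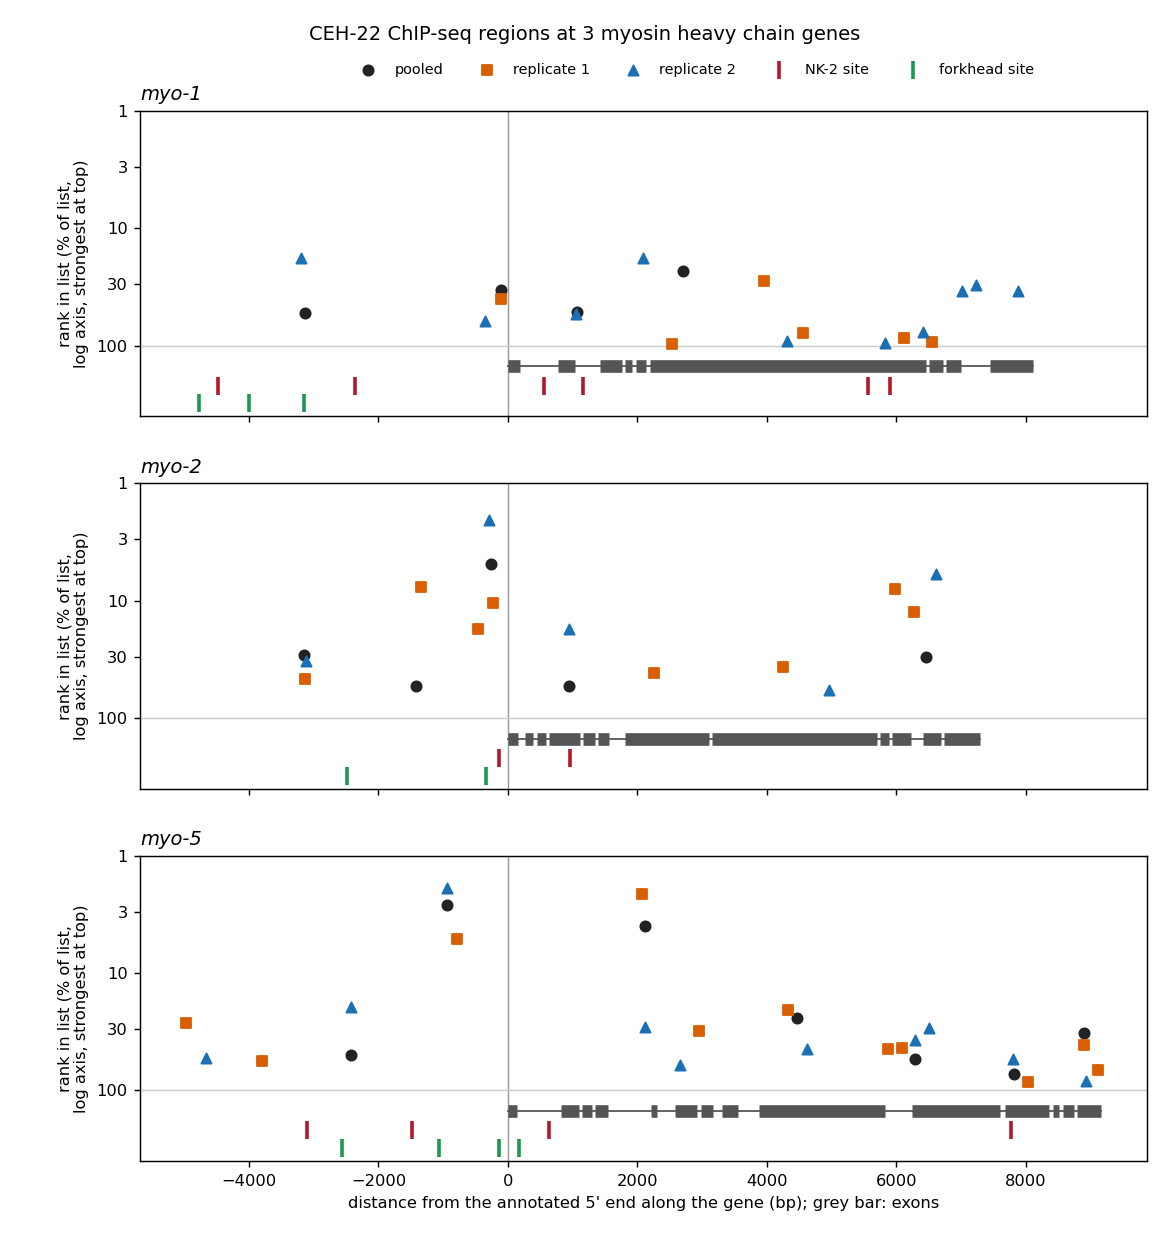
Every region in the windows of *myo-1*, *myo-2* and *myo-5*, by distance of its summit from the annotated 5' end (horizontal axis, bp) and by its rank as a percent of its list (vertical axis, log scale, strongest at the top), for the pooled list (black circles), replicate 1 (orange squares) and replicate 2 (blue triangles), with exons, NK-2 sites (red) and forkhead sites (green) below. The strongest points lie upstream of *myo-2* and *myo-5* and in an intron of *myo-5*. Points near the 3' end of *myo-2* also enter the strongest 10% in replicate 1 (7.93%) and replicate 2 (5.91%). No *myo-1* region enters the strongest 10% of a list.

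The genes were then placed among all nuclear protein-coding genes by their strongest region, counting the percent of genes whose strongest region in the same kind of window was at least as strong. By this measure *myo-5* stood at 3.87% in the pooled list, at 4.56% in replicate 1 and at 4.42% in replicate 2. *myo-2* stood at 6.94%, 15.4% and 4.75% in the same order, and *myo-1* at 28.4%, 45.7% and 34.0%. The order *myo-5*, *myo-2*, *myo-1* was the same in both replicates and in the pooled list, which is made from them and is not separate. However, *myo-2* and *myo-5* were close in replicate 2, and the 2 replicate values of *myo-2* had an SD of 7.56 percentage points. These neighbours in the order did not differ beyond that spread. *myo-1* was placed behind both in each replicate. The strongest region of a gene was not always the same one, so the shared order does not mean that the lists shared regions. In replicate 1 the strongest region of the *myo-2* window lay inside *cdf-2* and that of *myo-5* in its intron. In the other lists both lay within 1000 bp upstream of their genes. For *myo-1* the place differed in every list, and in replicate 2 it was inside *twk-1*. These placings are a description of 1 group with 2 replicates, and no test of a condition was possible.

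Window length bears on these placings, because a longer window can hold more regions. The members' windows were 12288 to 14162 bp long, against a median of 7027 bp over all genes. Among genes with windows within 20% of the same length, *myo-5* stood at 7.49%, *myo-2* at 10.6% and *myo-1* at 42.7%. In a promoter window of one length for every gene, from 1000 bp upstream to 200 bp downstream of the 5' end, 24.6% of genes had a pooled region, and each member had 1. There *myo-5* stood at 1.2%, *myo-2* at 1.99% and *myo-1* at 9.74% in the pooled list. In replicate 1 they stood at 3.04%, 5.47% and 16.2%, and in replicate 2 at 1.03%, 1.1% and 22.5%. The part of window length in the placings over the whole window was not otherwise tested.

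**Figure D3:**
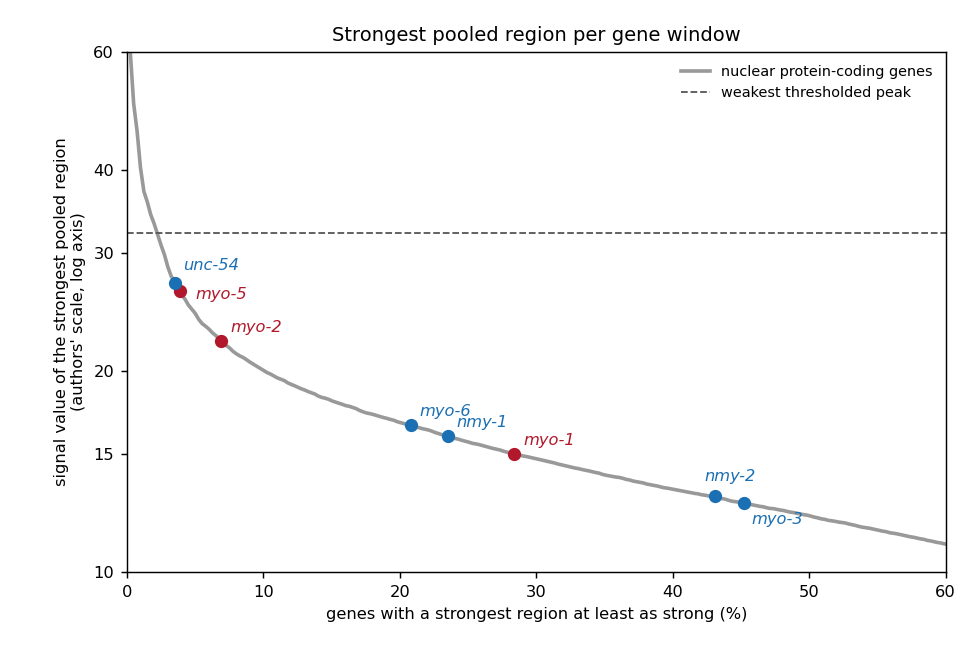
Signal value of the strongest pooled region per gene window (vertical axis, authors' scale, log) against the percent of nuclear protein-coding genes with a strongest region at least as strong (horizontal axis), with the curve of all genes in grey, the 3 members in red and the other conventional myosin heavy chain genes in blue. *myo-5* at 26.3 and *myo-2* at 22.2 lie below the dashed line of the weakest thresholded peak at 32.2, and *unc-54* lies beside *myo-5*.

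In the pooled list the body wall myosin genes *unc-54* and *myo-3* lay on either side of the pharyngeal *myo-2* and *myo-5*, while in replicate 1 *unc-54* lay between them. *unc-54*, which encodes the main myosin heavy chain of body wall muscle, had the strongest region of the 8 conventional myosin heavy chain genes examined. That region had a pooled value of 27.1 and rank 469, and its summit lay 5683 bp downstream of the 5' end, within the gene. It ranked 350 in replicate 2, and the strongest *unc-54* region of replicate 1 ranked 2083 and lay 5729 bp downstream of the 5' end. *unc-54* stood at 3.57% in the pooled list, 13.9% in replicate 1 and 2.7% in replicate 2. Its promoter window also held a region, at rank 963 and a placing of 2.01%, next to the 1.99% of *myo-2*, and in the replicates that window stood at 17.5% and 0.821%. *myo-3*, the other body wall chain, stood at 45.2%, 28.2% and 28.0% over the whole window and had no promoter region in the 3 lists. No test of pharyngeal against body wall genes was made, since the genes were chosen with earlier results known.

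The remaining conventional chains, *myo-6*, *nmy-1* and *nmy-2*, stood lower than *myo-2* and *myo-5* in the pooled list. *myo-6* stood at 20.8% in the pooled list, 31.4% in replicate 1 and 46.7% in replicate 2. The non-muscle chains *nmy-1* and *nmy-2*, which drive contraction of the cell cortex, stood at 23.5% and 43.1% in the pooled list, at 55.1% and 32.7% in replicate 1 and at 11.7% and 49.7% in replicate 2. The replicates of *nmy-1* were thus far apart. The median placing in the pooled list was 6.94% for the 3 pharyngeal genes, 23.5% for the 5 other conventional chains, 37.4% for 8 unconventional myosin genes and 10.3% for 12 genes of myosin light chains and thick filament partners, and over all genes it was 50%. In the same order of lists the medians were 15.4%, 31.4%, 35.3% and 15% in replicate 1, where the light chains and partners stood just ahead of the pharyngeal genes, and 4.75%, 28.0%, 49.7% and 15.2% in replicate 2. None of these 25 other genes had a thresholded peak. The median windows in the same order of lists were 13112, 12955, 16589.5 and 8388 bp, and the medians were not adjusted for window length. *mlc-1* and *mlc-2*, both among the light chains, had the same strongest pooled region, so their values are not separate. The median of the 3 pharyngeal genes was the value of *myo-2* alone in each list, and these genes ran from 3.87% to 28.4% in the pooled list.

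**Figure D4:**
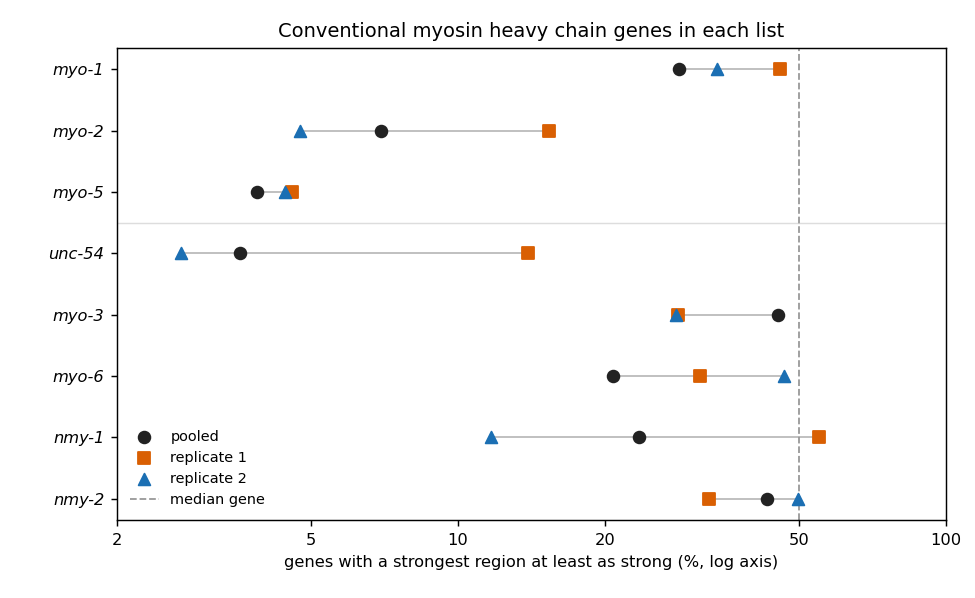
Percent of nuclear protein-coding genes with a strongest region at least as strong (horizontal axis, log scale) for the 8 conventional myosin heavy chain genes, in the pooled list (black circles), replicate 1 (orange squares) and replicate 2 (blue triangles), with the median gene as a dashed line. *myo-5* has the narrowest spread among the pharyngeal genes, but in each of these genes the replicate values come from different regions. *myo-2* and *unc-54* stand higher in replicate 2 than in replicate 1, and *myo-1* stands between 28.4% and 45.7%.

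Sharing between lists and nearness of NK-2 sites were counted per gene. A pooled region with summits of both replicates within 200 bp was present in the windows of *myo-2* and *myo-5*, 2 of 3 members, and in those of 40.2% of all genes. Among genes of like window length that share was between 54.7% and 58.5%, so the members' count was near the background. All 3 members had an NK-2 site within 100 bp of at least 1 pooled summit, against 9.38% of all genes and 13.8% to 15.6% of genes of like window length. The summits concerned were weak, at ranks 10163 (*myo-1*), 10558 (*myo-2*) and 14135 (*myo-5*), and none was the strongest of its window. Replicate 1 had no summit within 200 bp of any of them, so the count rests on regions matched in replicate 2 only. The upstream site of *myo-2*, 119 bp from its pooled summit, was not counted. With the list of replicate 1 alone, *myo-2* was the single member with such a site, and there it was the upstream site, 90 bp from the summit at rank 3157. The shares of other genes were not matched for the number of regions or sites. *myo-1*, *myo-2* and *myo-5* held 4, 5 and 7 pooled regions, against medians of 2, 2 and 3 among genes of like window length. The *myo-1* window held 6 NK-2 sites, against a median of 2 over all genes. The part of these numbers in the count was not tested.

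The promoter regions of the 3 genes also shared an annotation that the choice of members did not use. Each of their pooled summits within 1000 bp upstream lay in an annotated non-coding RNA gene, *F21C3.10* at *myo-1*, *T18D3.14* at *myo-2* and *F58G4.8* at *myo-5*. This did not hold for all 3 genes in either replicate, since the replicate 1 summit 788 bp upstream of *myo-5* and the replicate 2 summit 356 bp upstream of *myo-1* lay in no such gene. Of all 4006 pooled summits at that distance from a protein-coding 5' end, 4.52% lay in such a gene. *T18D3.14* (356 bp) and *F58G4.8* (285 bp) are on the strand of the myosin gene, *F21C3.10* (132 bp) on the other, and the part of these transcripts in the signal was not tested. The base composition of the 2 strongest regions was also on the high side, with a GC content of 48.8% at *myo-2* and 49.7% at *myo-5*. The median was 39.2% over nuclear pooled regions and 44.5% over those among the 1000 strongest, and 6.74% and 5.29% of regions had at least the GC content of the *myo-2* and the *myo-5* region. The part of base composition in their ranks was not tested. Both features, the non-coding RNA genes and the base composition, were picked after looking at the values.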

How the data were processed

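Regions were called by the authors for each replicate and for both replicates pooled, each with a control, per the deposited file listing. The pooled list holds peaks and background as input for IDR. The thresholded list was made by IDR from the pooled and replicate lists. The signal value of each region in the deposited lists is a score from the authors' peak caller on a scale not stated. The name of the caller, of the aligner and the cutoff were not given in the sources used here, and the read depth is unknown. The ce11 lists were used, with Ensembl 115 gene models and the RefSeq genome sequence, both of WBcel235. The ce10 lists and the control samples were not analysed here.

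A region was given to a gene if its summit (start plus offset) lay between 5000 bp upstream of the 5' end of the gene span and the 3' end. Coordinates are 1-based. Regions were ranked by signal value within a list, and genes with no region counted as weakest. Sites were read on both strands, with distances taken to their centres. The functions recovered all planted regions and sites in simulated data. Everything was computed in Python 3.11.15 with pandas 2.3.3. The members and the gene lists were chosen with earlier results of these data known. The members, the other conventional chains and any list gene with a thresholded peak were to be named, and *hum-9* was not matched in the annotation. The labels do not say how separate the replicate cultures were, so spreads may be technical. No p-value was computed.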

Additional observations from a re-analysis of the deposited data

How the results depend on the processing

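Placings are the percent of genes with a strongest region at least as strong. The lists of single replicates gave 34.0% to 45.7% for *myo-1* (28.4% in the pooled list), 4.75% to 15.4% for *myo-2* (6.94%) and 4.42% to 4.56% for *myo-5* (3.87%). These are the replicate placings given above and not a new peak call. With an upstream reach of 2000 bp *myo-1* stood at 19.6% and *myo-5* at 2.56%, and with 10000 bp at 40.1% and 5.91%. With the promoter window they stood at 9.74% and 1.2%, and among genes of like window length at 42.7% and 7.49%. Upstream of the gene alone *myo-5* stood at 3.08%. Replicate SDs were 8.27 points for *myo-1*, 7.56 for *myo-2* and 0.0956 for *myo-5*, so small moves of *myo-5* exceed its spread. The *myo-5* SD compares different regions, the intronic one in replicate 1 and the upstream one in replicate 2, and is not the spread of either. In replicates 1 and 2 the upstream region ranked 1546 and 571, and the intronic region 633 and 8649. The other placings of *myo-1* and *myo-2* moved by less than their SDs. Those SDs also compare different regions of replicates 1 and 2. The regions lay 3964 bp downstream and 3190 bp upstream of the 5' end for *myo-1*, and 1348 and 293 bp upstream for *myo-2*.

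No member had a thresholded peak with other reaches, with the stronger peaks of that list alone or with the 285 strongest regions of either replicate (0 to 0). Among the strongest 1000 or 2000 pooled regions 2 members, *myo-2* and *myo-5*, had one, as had 7.23% and 13.9% of all genes. Only *myo-5* (1 member, 4.35% of genes) had a shared region in the strongest 10% of each list. With sites within 50 bp only *myo-2* (1 member) had an NK-2 site near a pooled summit. With the list of a single replicate in place of the pooled list, 1 to 3 members had a site within 100 bp of a summit. The cause of these differences was not tested. No paired analysis was possible because there is 1 group.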

Other observations

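The genes most like *myo-2* were sought by the distance between log10 placings over the pooled list and both replicate lists. The nearest was its neighbour *cdf-2*, at a distance of 0, since the windows of both genes hold the same strongest regions. The next were *mrpl-12* and *Y39A1A.21* on chromosome III, both at 0.0841, with placings of 6.79%, 17.2% and 5.57% in the pooled list, replicate 1 and replicate 2. These genes are neighbours too, and their values are equal.

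The windows of *myo-1*, *myo-2* and *myo-5* held 4, 5 and 7 pooled regions, or 0.305, 0.407 and 0.494 per kb, against 0.196 per kb over the nuclear genome. Among genes of like window length 4.82% had as many regions as *myo-5*, 14.0% as many as *myo-2* and 30.3% as many as *myo-1*. NK-2 sites did not follow that order. The *myo-1* window held 6 (4.58 per 10 kb), that of *myo-2* 2 (1.63) and that of *myo-5* 4 (2.82), with a median of 1.86 per 10 kb over all genes.

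In the list of myosin light chains and partners, *unc-89*, which encodes a giant protein of the muscle M-line, stood at 3.44% in the pooled list, 0.956% in replicate 1 and 11.6% in replicate 2. *unc-22*, the twitchin gene, stood at 2.72%, 5.1% and 1.89%. The unconventional myosin gene *hum-5* stood at 2.37%, 2.82% and 4.37%, ahead of the pharyngeal genes in all 3 lists. The choice of these 3 genes came after seeing their values.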
